A study of Mus musculus with 4 samples.

Results

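The 10 genes described here are the D and E cyclins *Ccnd1*, *Ccnd2*, *Ccnd3* and *Ccne1*, the kinases *Cdk4* and *Cdk6*, and the CDK inhibitors *Cdkn1a*, *Cdkn1b*, *Cdkn1c* and *Cdkn2c*. They were taken by gene name from a deposited table of 39186 genes, and all 10 were found. The table holds RNA sequencing of sorted fetal liver cells that lack lineage markers and carry Sca-1 and c-Kit (LSK cells), a C57BL/6 population rich in blood stem and progenitor cells. Per the methods the lineage antibodies were against CD4, CD8, Gr-1, B220 and Ter119. There were 2 *Pich*-KO and 2 *Pich*-WT samples. The embryos were of mid-gestation, and the *Pich*-KO embryos carry in every cell a small TALEN deletion at the start of the second exon of *Pich* (listed as *Ercc6l*, on the X chromosome), a DNA translocase that binds the ultrafine DNA bridges of anaphase. No other allele or treatment is given for either group, and the labels do not say whether a sample was 1 embryo or a pool. P-values therefore measure the spread between these samples, which may be technical.

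Entry into S phase is set by these proteins. D cyclins, which are made in response to growth signals, activate CDK4 and CDK6, which phosphorylate the retinoblastoma protein RB and so free E2F transcription factors. E2F factors turn on *Ccne1*, and cyclin E with CDK2 then starts DNA replication. Inhibitors of the INK4 family, such as p18 (*Cdkn2c*), bind CDK4 and CDK6 alone, whereas those of the Cip/Kip family, p21 (*Cdkn1a*), p27 (*Cdkn1b*) and p57 (*Cdkn1c*), bind cyclin-CDK complexes and mainly block CDK2. Inhibitors of both families are known to restrain the cycling of blood stem cells, and CDK6 is known as a kinase that promotes their exit from quiescence. Mice without any D cyclin die before birth with failed hematopoiesis.

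The cell type of the samples was checked first, because values from bulk RNA depend on which cells are in it. *Kit* and *Ly6a*, the genes of c-Kit and Sca-1, were present in every sample, which the sorting on these 2 proteins would itself bring about. *Kit* had normalized counts of 2328 and 2513 in the *Pich*-WT replicates and 4447 and 2772 in the *Pich*-KO replicates, and *Ly6a* had 901 and 1061 in the *Pich*-WT replicates and 3586 and 2978 in the *Pich*-KO replicates. *Ly6a* rose by a log2 fold change of 1.74 (limma adjusted p = 0.00017), and *Kit*, at 0.54 (limma adjusted p = 0.114), was not past the threshold. The paper reports higher expression of interferon-β response genes in *Pich*-KO LSK cells. The part of that response in the rise of *Ly6a* was not tested. Genes listed as markers of other cell types were also present, and several of these lists differed between the genotypes. Whether other cells or the LSK cells themselves expressed these genes was not tested. The summed normalized count of 16 macrophage markers was 80190.3 and 80745 in *Pich*-WT and 13815 and 12874 in *Pich*-KO, and all 16 were lower in *Pich*-KO. That of 11 endothelial markers was 48876 and 34638 in *Pich*-WT and 7780.0 and 5207 in *Pich*-KO, and all 11 were lower. That of 13 erythroid markers was 201928 and 143006 in *Pich*-WT and 34612 and 37493 in *Pich*-KO, of which 0 were higher and 10 lower. The sum of 12 neutrophil and monocyte markers was higher in *Pich*-KO, with 21369 and 22962 in *Pich*-WT and 66120.4 and 122418 in *Pich*-KO. This came mostly from *Mpo*, a granule enzyme gene named after its values were seen. *Mpo* had 10351 and 12533 in the *Pich*-WT replicates and 54647 and 90492 in the *Pich*-KO replicates. The list did not move as a whole. Of the 12 markers 3 rose, 2 fell and 7 did not pass, with a median log2 fold change of −0.25. *Ly6c2* (2.96, limma adjusted p = 0.0016) and *Prtn3* (2.73, limma adjusted p = 0.00076) rose most. *Ccr2* (−1.54, limma adjusted p = 0.00028) and *Itgam* (−1.28, limma adjusted p = 0.016) fell. No marker of these lists was at 0 in both samples of a group, and the defining macrophage genes *Adgre1* (273 and 205) and *C1qa* (73.1 and 68.2) were present in *Pich*-KO. Of 12 hepatoblast markers 0 were higher and 6 lower, and they summed to 5854 and 5262 in *Pich*-WT and 3958 and 3274 in *Pich*-KO. Of 12 megakaryocyte and mast cell markers 3 were higher and 3 lower, with sums of 5519 and 3704 in *Pich*-WT and 2416 and 3009 in *Pich*-KO. The mast cell genes *Ms4a2* (2.18, limma adjusted p = 0.0094) and *Cpa3* (2.03, limma adjusted p = 0.00073) rose most. The megakaryocyte genes *Pf4* (−3.12, limma adjusted p = 8.1e-05) and *Gp9* (−0.96, limma adjusted p = 0.0241) fell most. Of 12 lymphoid markers 1 was higher and 4 lower, with sums of 2187 and 2088 in *Pich*-WT and 1511 and 2084 in *Pich*-KO. Of 14 stem cell markers 3 were higher and 4 lower, with sums of 35359 and 36971 in *Pich*-WT and 43131 and 29637 in *Pich*-KO. *Ly6a* and *Runx1* (log2 fold change 1.46, limma adjusted p = 0.00059) rose most. *Hlf* (−2.37, limma adjusted p = 0.0012) and *Mecom* (−2.10, limma adjusted p = 0.00075) fell most. Fewer cells of a type and less RNA per cell cannot be told apart in these data, and the part of this difference in the results below was not tested.

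**Figure D1:**
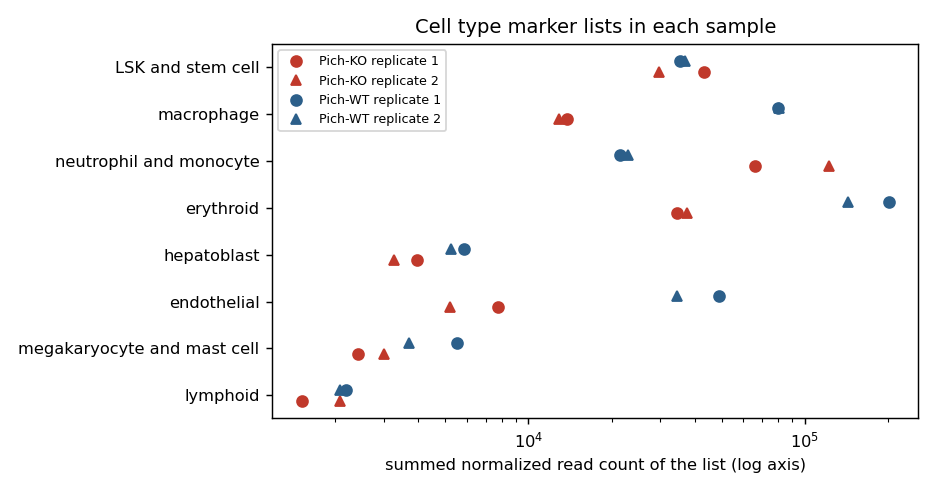
Summed normalized read counts of the marker lists of 8 cell types (horizontal, log axis) in each of the 4 samples; circles are replicate 1 and triangles replicate 2. The sums of macrophage, erythroid and endothelial markers lie well to the left in both *Pich*-KO samples. That of neutrophil and monocyte markers lies to the right, mostly through *Mpo*.

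One library stood apart. *Pich*-WT replicate 2 had 0 reads on 4 Y-linked genes, where the other samples had 1607 to 2848, and the changes without it are given with the results. The genotype labels could not be checked by the level of *Ercc6l*, since the small deletion leaves its transcript countable. *Ercc6l* had 772 and 661 in the *Pich*-WT replicates and 1142 and 1232 in the *Pich*-KO replicates, a log2 fold change of 0.73 (limma adjusted p = 0.00887). Each sample had between 14703215 and 20933919 reads on genes. Of the 10 genes *Cdk4* rests on the most reads, 9874 to 13153 a sample, and *Cdkn1b* on 54 to 79.

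Groups were compared on log2(normalized count + 1) with limma for 32428 genes whose mean reached 1, Benjamini-Hochberg adjusted over all of them at a threshold of 0.05. All 10 genes passed this filter on low values. *Cdk6*, *Cdkn1a*, *Ccne1* and *Cdk4* were higher in *Pich*-KO and *Cdkn1c* and *Cdkn2c* were lower, while the 3 D cyclins and *Cdkn1b* did not pass. Over all genes tested the share called was 7.58% higher and 9.60% lower, 17.2% in all. Among the 11794 genes whose mean reached 50, as it did for all 10, it was 19.5% and 22.6%, 42.0% in all. Both *Pich*-KO values lay above both *Pich*-WT values in 6 of the 10 genes and below them in 2, where all genes tested had 28.9% and 27.2%, 56.1% together. The quasi-likelihood test of edgeR on recovered reads called the same 4 genes higher and 2 lower, with 18.6% higher and 20.7% lower of all it tested, 39.3% in all. With 2 samples against 2, an exact permutation test of 1 gene cannot pass the threshold, so the adjusted p-values rely on the variance borrowed from genes of like level. When the variance of each gene was instead drawn towards a common prior that did not follow the level, no gene of the table passed although 7377 had an unadjusted p under 0.05.

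**Figure D2:**
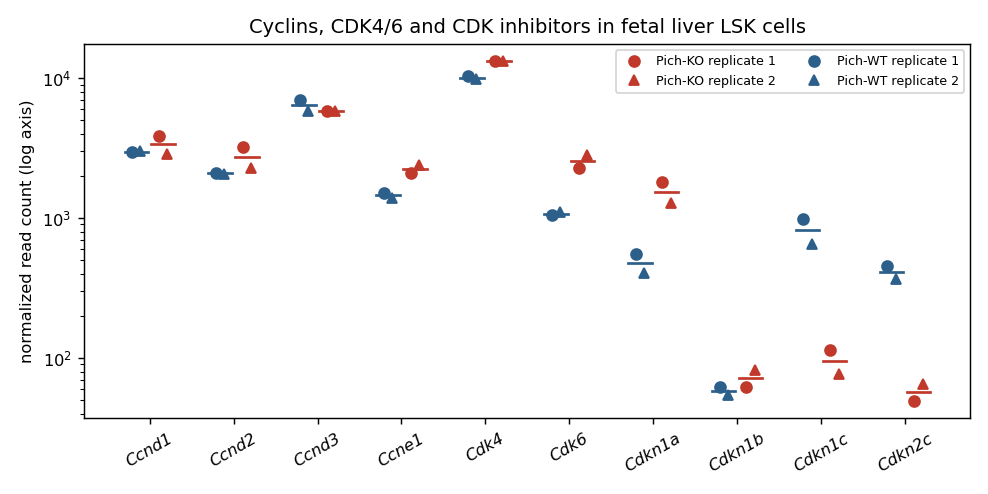
Normalized read count (vertical, log axis) of each of the 10 genes in each sample; bars are group means, circles replicate 1 and triangles replicate 2. The groups lie farthest apart for Cdkn1c and Cdkn2c, which are lower in *Pich*-KO, and for Cdkn1a and Cdk6, which are higher.

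Sequence before the start sites is shown for 3 of the genes that changed, because *Cdkn1a* is read here beside other p53 targets and *Ccne1* and *Cdkn2c* beside the E2F genes. RefSeq windows on GRCm38.p6 were found for 7 of the 10 genes, and *Ccnd1*, *Ccnd2* and *Cdkn1c* had none. Each line gives the 250 bases before the annotated start, 5′ to 3′ on the strand of the gene. Capitals mark a match to the p53 consensus (no spacer, at most 1 mismatch in 20 bases) or to the GC box GGGCGG on either strand.
*Cdkn1a*, chr17:29090729-29090978, plus strand: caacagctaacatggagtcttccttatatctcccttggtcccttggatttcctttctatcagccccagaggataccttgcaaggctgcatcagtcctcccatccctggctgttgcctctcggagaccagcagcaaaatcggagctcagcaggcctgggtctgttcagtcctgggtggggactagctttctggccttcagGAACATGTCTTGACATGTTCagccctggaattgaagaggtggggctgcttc
*Ccne1*, chr7:38107491-38107740, minus strand: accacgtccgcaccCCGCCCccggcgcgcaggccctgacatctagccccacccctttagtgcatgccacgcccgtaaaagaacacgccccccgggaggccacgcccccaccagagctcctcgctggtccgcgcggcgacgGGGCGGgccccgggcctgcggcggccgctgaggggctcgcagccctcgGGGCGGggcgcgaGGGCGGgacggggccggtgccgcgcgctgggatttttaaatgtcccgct
*Cdkn2c*, chr4:109666757-109667006, minus strand: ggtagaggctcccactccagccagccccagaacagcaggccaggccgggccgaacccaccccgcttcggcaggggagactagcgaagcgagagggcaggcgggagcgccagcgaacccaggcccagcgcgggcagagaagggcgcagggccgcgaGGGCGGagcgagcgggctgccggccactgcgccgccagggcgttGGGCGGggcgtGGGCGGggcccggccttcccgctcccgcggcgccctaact

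The *Cdkn1a* window lies before the first of its 2 annotated starts, and the other start is 2790 bases downstream. It holds the p53 consensus from 51 to 32 bases before the start, with 1 mismatch, and no GC box. The start used for *Ccne1* is 44 bases and that for *Cdkn2c* 433 bases from the gene start in the deposited table. The same match was found in 0.0761% of 32851 windows of this length over all genes. Of the 25 genes with one, 16 were tested, and 3 were higher (*Cdkn1a*, *Mthfd1* and *Rps27l*) and 1 lower (*Bank1*) in *Pich*-KO. These 4 were named after their values were seen. The GC box matched 4 times in *Ccne1* and 3 times in *Cdkn2c*, and 32.7% of all windows hold it. Neither E2F sequence searched, TTTGGCGC or TTTCCCGC on either strand, was found in the windows of the 7 genes. They occur in 0.417% and 0.895% of all windows. A match describes these letters and says nothing of binding. The E2F and IRF searches allowed no mismatch, unlike the p53 search, so they cannot show that a window lacks such a site.

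Of the D cyclins, *Ccnd3* (ENSMUSG00000034165, chromosome 17, 47505051 to 47599691 on the plus strand on GRCm38) had the most reads. Its normalized counts were 6987 and 5820.0 in the *Pich*-WT replicates and 5854 and 5786 in the *Pich*-KO replicates, so that the groups overlapped (log2 fold change −0.13, limma adjusted p = 0.472, 95% interval −0.37 to 0.11). *Ccnd1* (ENSMUSG00000070348, chromosome 7, 144929931 to 144939925 on the minus strand), whose protein cyclin D1 is a classical target of mitogen signals, had 2963 and 3013 in the *Pich*-WT replicates and 3851 and 2879 in the *Pich*-KO replicates. The groups overlapped here too, with *Pich*-KO replicate 1 above the other samples (log2 fold change 0.16, limma adjusted p = 0.531, 95% interval −0.17 to 0.48). Without that replicate the value was −0.053. *Ccnd2* (ENSMUSG00000000184, chromosome 6, 127125162 to 127152193 on the minus strand), the D cyclin most often tied to cytokine signals in blood cells, had 2110.1 and 2078 in the *Pich*-WT replicates and 3215 and 2261 in the *Pich*-KO replicates. Both *Pich*-KO values were above both *Pich*-WT values, by little for replicate 2. Its log2 fold change was 0.36 (SE 0.16, limma adjusted p = 0.185), with a 95% interval −0.0087 to 0.74. With the replicate number as a block its adjusted p was 0.0361.

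Levels of different genes were compared per kilobase of gene model, in normalized counts per kilobase. The length was the listed one, which for 97.4% of genes found in GENCODE M21 equals that of all annotated exons joined. It can exceed the length of the transcripts made in these cells, so orders and shares between genes depend on it. On this scale the 3 D cyclins summed to 1649.7 and 1524 in *Pich*-WT and to 1827 and 1511 in *Pich*-KO, so that the sums of the groups overlapped. *Ccnd3* made up 48.3% and 43.5% of the sum in *Pich*-WT and 36.5% and 43.6% in *Pich*-KO. *Ccnd1* made up 38.1% and 42.0% against 44.8% and 40.5%. *Ccnd2* held the smallest share in every sample, from 13.6% to 18.7%, and both *Pich*-KO shares were above both *Pich*-WT shares.

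*Ccne1* (ENSMUSG00000002068, chromosome 7, 38097984 to 38107534 on the minus strand), which encodes the CDK2 partner cyclin E1, was higher in *Pich*-KO. Its normalized counts were 1522 and 1384 in the *Pich*-WT replicates and 2097 and 2402 in the *Pich*-KO replicates. The groups did not overlap, and the log2 fold change was 0.63 (SE 0.12, limma adjusted p = 0.0091). Its paralog *Ccne2* had 832 and 770.0 in the *Pich*-WT replicates and 915 and 986 in the *Pich*-KO replicates and was not past the threshold (0.25, limma adjusted p = 0.275). Nor was *Cdk2*, the kinase of cyclin E, which had 2837 and 2730.0 in the *Pich*-WT replicates and 2394 and 2466 in the *Pich*-KO replicates and a log2 fold change of −0.20 (limma adjusted p = 0.237).

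*Cdk4* (ENSMUSG00000006728, chromosome 10, 127063534 to 127067920 on the plus strand) had the highest level of the 10 genes in every sample. Its normalized counts were 10279 and 9874 in the *Pich*-WT replicates and 13252 and 13263 in the *Pich*-KO replicates, in *Pich*-KO 13258 ± 8.08 against 10077 ± 286 in *Pich*-WT (mean ± SD, n = 2 each). The 2 *Pich*-KO samples were nearly equal and both above *Pich*-WT, and the log2 fold change was 0.40 (SE 0.069, limma adjusted p = 0.00588). *Cdk6* (ENSMUSG00000040274, chromosome 5, 3341485 to 3531008 on the plus strand) had 1057 and 1096 in the *Pich*-WT replicates and 2292 and 2818 in the *Pich*-KO replicates, in *Pich*-KO 2555 ± 372 against 1076 ± 27.9 in *Pich*-WT (mean ± SD, n = 2 each). It was 2.37-fold higher in *Pich*-KO by the ratio of the means, a log2 fold change of 1.24 (SE 0.13, limma adjusted p = 0.00059). Per kilobase *Cdk6* stayed far below *Cdk4*. It made up 2.3% and 2.5% of the summed level of the pair in *Pich*-WT and 3.9% and 4.7% in *Pich*-KO. Whether strand was used in counting is not given in the sources used here. *Cdk4* overlaps *Tspan31*, *Ccnd3* overlaps *Bysl* and *Ccnd1* overlaps *Oraov1* on the other strand, so reads in these overlaps cannot be told apart. These neighbours had at most 2290, 1727 and 431 reads in a sample.

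The inhibitors changed in opposite directions. *Cdkn1a* (ENSMUSG00000023067, chromosome 17, 29090976 to 29100727 on the plus strand), the p21 gene and best known target of p53, had normalized counts of 552 and 404 in the *Pich*-WT replicates and 1819 and 1277 in the *Pich*-KO replicates. Both *Pich*-KO samples were above both *Pich*-WT samples, with 1548 ± 384 against 478 ± 104 in *Pich*-WT (mean ± SD, n = 2 each). This was 3.24-fold higher by the means and a log2 fold change of 1.69 (SE 0.21, limma adjusted p = 0.0013). *Cdkn1c* (ENSMUSG00000037664, chromosome 7, 143458339 to 143461050 on the minus strand), the p57 gene, had 983 and 652 in the *Pich*-WT replicates and 115 and 77.3 in the *Pich*-KO replicates. Its values fell from 818 ± 234 (SD, n = 2) to 95.9 ± 26.3 (SD, n = 2), 8.52-fold lower by the means, with a log2 fold change of −3.08 (SE 0.27, limma adjusted p = 0.00025).

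*Cdkn2c* (ENSMUSG00000028551, chromosome 4, 109660876 to 109667189 on the minus strand), the p18 gene, had 455 and 366 in the *Pich*-WT replicates and 49.1 and 64.8 in the *Pich*-KO replicates. It was 7.21-fold lower in *Pich*-KO by the means, with a log2 fold change of −2.83 (SE 0.25, limma adjusted p = 0.00024). Between the *Pich*-KO samples the order was not the same for all inhibitors: *Cdkn1a* and *Cdkn1c* were higher in replicate 1, and *Cdkn2c* and *Cdkn1b* in replicate 2. *Cdkn1b* (ENSMUSG00000003031, chromosome 6, 134920401 to 134925513 on the plus strand), the p27 gene, had the lowest level per kilobase in both groups. Its normalized counts were 61.7 and 54.0 in the *Pich*-WT replicates and 62.2 and 81.8 in the *Pich*-KO replicates. The replicate 1 values of the genotypes were nearly the same, and the log2 fold change of 0.30 (SE 0.30, limma adjusted p = 0.58) had a wide interval of −0.39 to 0.99 (95%), which includes a change as large as that of *Ccne1*. *Cdkn1c* and *Cdkn2c* fell together with the macrophage, endothelial and erythroid marker sums given above. Of the 14 stem cell markers 4 fell too, among them *Hlf* and *Mecom*, and 3 rose. The part of a change in cell types in the fall of *Cdkn1c* and *Cdkn2c* was not tested.

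**Figure D3:**
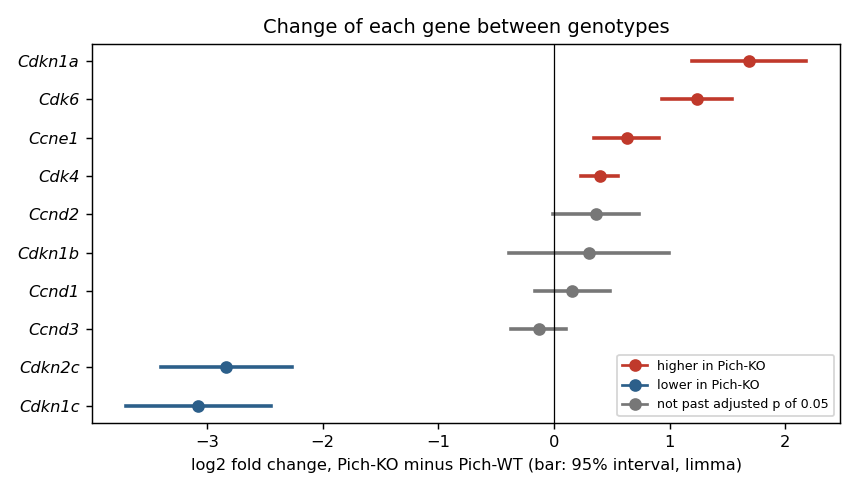
Log2 fold change of each gene, *Pich*-KO minus *Pich*-WT (horizontal), with its 95% interval from limma; red and blue mark genes past an adjusted p of 0.05. The intervals of Cdkn1c and Cdkn2c lie below −2, those of Cdkn1a, Cdk6, Ccne1 and Cdk4 above 0, and the other 4 include 0.

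*Cdkn1c* was the largest part of the inhibitor transcripts in *Pich*-WT and *Cdkn1a* in *Pich*-KO. Per kilobase, the 4 inhibitors summed to 820.4 and 582 normalized counts in *Pich*-WT and to 600.1 and 439 in *Pich*-KO, and the groups overlapped. *Cdkn1c* made up 58.8% and 55.0% of that sum in *Pich*-WT and 9.4% and 8.6% in *Pich*-KO. *Cdkn1a* made up 18.9% and 19.6% in *Pich*-WT and 85.3% and 81.8% in *Pich*-KO. The share of *Cdkn2c* went from 20.6% and 23.4% to 3.0% and 5.5%, and that of *Cdkn1b* stayed at or under 4.1% in every sample. These shares restate the values above and carry no test of their own.

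**Figure D4:**
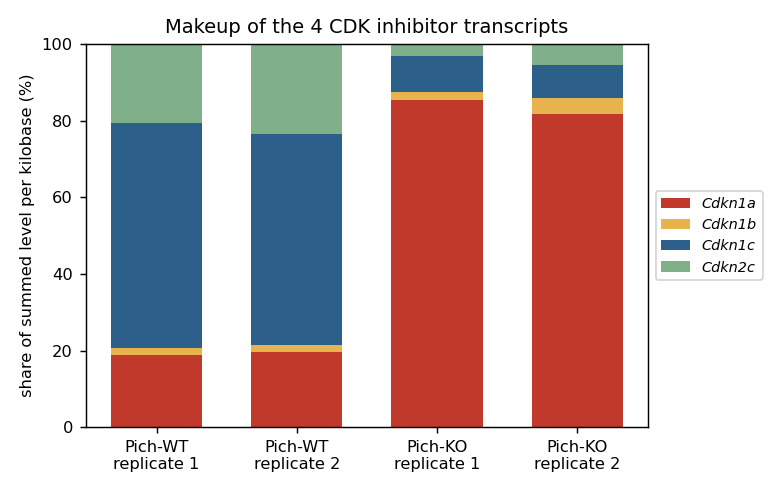
Share (%) of each inhibitor in the summed level per kilobase of the 4 inhibitor genes, one bar for each sample. Cdkn1c (blue) is the largest part of both *Pich*-WT bars and Cdkn1a (red) of both *Pich*-KO bars.

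Across all 10 genes, the order of the mean level per kilobase in *Pich*-WT was *Cdk4*, *Ccnd3*, *Ccnd1*, *Ccne1*, *Cdkn1c*, *Ccnd2*, *Cdkn2c*, *Cdkn1a*, *Cdk6* and *Cdkn1b*, from 3101 to 12.7 normalized counts per kilobase. Of the neighbours in this order, the *Pich*-WT values overlapped for *Cdkn2c* and *Cdkn1a* alone. In *Pich*-KO it was *Cdk4*, *Ccne1*, *Ccnd1*, *Ccnd3*, *Cdkn1a*, *Ccnd2*, *Cdk6*, *Cdkn1c*, *Cdkn2c* and *Cdkn1b*, from 4081 to 15.8. There *Ccne1* overlapped with *Ccnd1*, and *Ccnd1* with *Ccnd3*. *Cdkn1a* thus stood below *Cdkn1c* in both *Pich*-WT samples and above it in both *Pich*-KO samples.

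Beside *Cdkn1a*, 20 other p53 targets were examined, and they went both ways: 7 were higher and 5 lower at the threshold, with a median log2 fold change of 0.23 against 0.025 over all genes tested. *Trp53inp1* and *Eda2r* rose most, with log2 fold changes of 2.23 (limma adjusted p = 0.00437) and 1.93 (limma adjusted p = 0.0335). *Gdf15*, a stress-induced cytokine, and *Sesn1* fell most, with −3.15 (limma adjusted p = 0.00089) and −1.57 (limma adjusted p = 0.00029). *Mdm2*, which encodes the ubiquitin ligase of p53, had 1221 and 1248 in the *Pich*-WT replicates and 1347 and 1291 in the *Pich*-KO replicates (0.10, limma adjusted p = 0.661). *Trp53* itself had 4599.9 and 4460.0 in the *Pich*-WT replicates and 4838 and 4469.6 in the *Pich*-KO replicates (0.038, limma adjusted p = 0.837). Neither of these passed.

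The other genes of the G1/S machinery, 36 in all of which 34 were tested, numbered 6 higher and 6 lower, with a median of 0.021. This was 17.6% in each direction, where all genes tested had 7.58% higher and 9.60% lower. Genes whose mean reached 50 had 19.5% and 22.6%, so the counts did not exceed that share. The genes named below are the extremes of this list and direct partners of the 10 genes. Among the RB family, *Rbl1*, the gene of p107, had the highest log2 fold change of the listed genes past the threshold, from 716 and 644 in *Pich*-WT to 1451 and 1521 in *Pich*-KO (1.13, limma adjusted p = 0.0008). *Rbl2* (0.20, limma adjusted p = 0.434) and *Rb1* (−0.69, limma adjusted p = 0.0926) did not pass. Of 8 *E2f* genes 1 rose, 3 fell and 4 did not pass. *E2f1*, the classical activator, fell from 1538 and 1374 to 673 and 283 (−1.73, limma adjusted p = 0.0105), and *E2f2* fell as well (−1.38, limma adjusted p = 0.00207). *E2f6*, which encodes a repressor, was the other that fell (−0.60, limma adjusted p = 0.0255) and was named after its values were seen. *E2f3*, which encodes another activator, rose by 0.94 (limma adjusted p = 0.00609). *Lin54* of the DREAM complex (0.91, limma adjusted p = 0.00577) and *Ambra1*, which directs the breakdown of D cyclins (0.60, limma adjusted p = 0.0302), also rose. *Fbxw7*, which directs the breakdown of cyclin E (−1.22, limma adjusted p = 0.0197), and *Tfdp2*, an E2F partner (−0.92, limma adjusted p = 0.0287), fell.

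Of the remaining inhibitors and the factors that remove p27, *Cdkn2d*, the INK4 gene of p19, fell like *Cdkn2c* but by less, from 1239 and 1154 to 855 and 725 (−0.60, limma adjusted p = 0.0206). *Cdkn2a* had at most 2 reads and *Cdkn2b* at most 5 in any sample, so that no change could be read for them at this depth. *Cks1b* rose (0.46, limma adjusted p = 0.00845) and *Skp2* did not pass, with 1112 and 1082 in the *Pich*-WT replicates and 1167 and 1072 in the *Pich*-KO replicates (0.028, limma adjusted p = 0.918). The products of *Skp2* and *Cks1b* act together in the breakdown of p27.

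Of 27 genes of S phase and proliferation, 15 were higher and 0 lower (1 lower when samples were scaled to equal total reads), with a median of 0.39. *Bub1* (0.72, limma adjusted p = 0.00227) and *Uhrf1* (0.64, limma adjusted p = 0.00095) rose most. *Mki67*, the gene of the Ki-67 antigen, had 3956 and 3820.0 in the *Pich*-WT replicates and 3440.1 and 4072 in the *Pich*-KO replicates and did not pass (−0.055, limma adjusted p = 0.8). Of 18 regulators known to act on the inhibitor genes, 1 was higher and 5 lower, with a median of −0.15. This was 5.6% and 27.8%, beside 19.5% and 22.6% of genes whose mean reached 50. *Foxo1*, a FOXO factor of the family that induces *Cdkn1b*, fell most, from 1091 and 822 to 177 and 80.7 (−2.98, limma adjusted p = 0.00086), followed by *Hes1*, a Notch target (−2.74, limma adjusted p = 0.00682). *Tgfbr1*, a receptor of TGF-β, which induces several CDK inhibitors, rose (1.49, limma adjusted p = 0.00322), whereas its partner *Tgfbr2*, named after its values were seen, fell (−1.40, limma adjusted p = 0.0122).

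*Cdkn1c* lies in an imprinted domain in which it is expressed from the maternal allele. The noncoding RNA *Kcnq1ot1*, made from the paternal allele, silences the paternal copy of *Cdkn1c* in cis. *Kcnq1ot1* had 506 and 498 in the *Pich*-WT replicates and 1021 and 1458 in the *Pich*-KO replicates. It rose by 1.28 (limma adjusted p = 0.00238), the opposite direction to *Cdkn1c*. A link between these changes was not tested. Of the 8 other genes of the domain examined, *Kcnq1ot1* included, 1 was higher (*Kcnq1ot1* itself) and 3 lower, with a median of −0.16. *Kcnq1* (99.3 and 56.0 against 16.4 and 4.55; log2 fold change −2.95, limma adjusted p = 0.0118) and *Slc22a18* (−1.34, limma adjusted p = 0.0331) fell most. *Kcnq1ot1* overlaps *Kcnq1* on the other strand, and without strand their reads cannot be told apart.

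**Figure D5:**
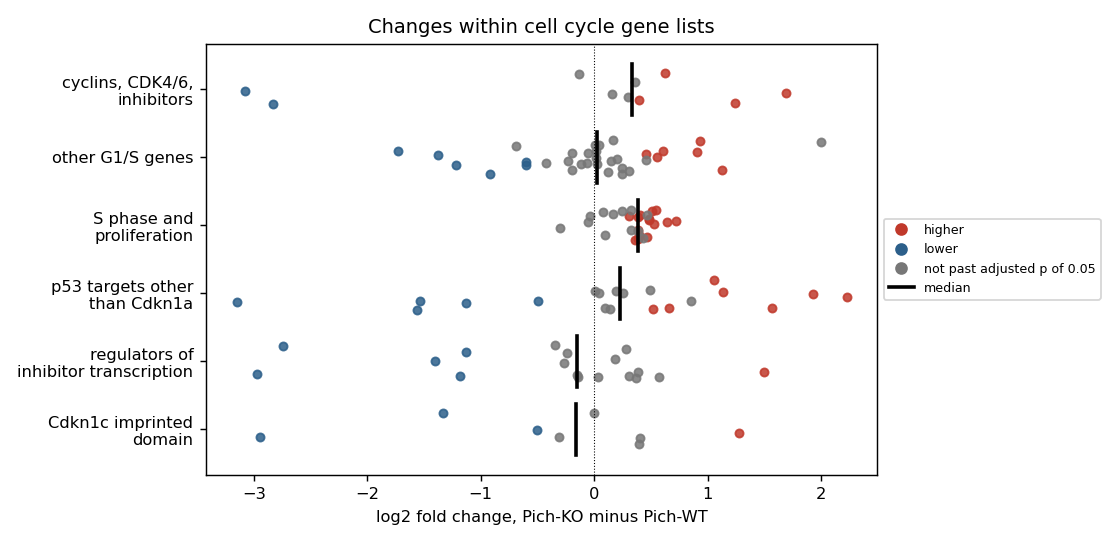
Log2 fold change, *Pich*-KO minus *Pich*-WT, of each tested gene (points) of the 10 cyclins, kinases and inhibitors and of 5 other gene lists; black bars are list medians. The 10 genes and the p53 targets spread to both sides of 0, while every S phase and proliferation gene past the threshold lies above 0 (1 lies below it when samples are scaled to equal total reads).

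Without *Pich*-WT replicate 2, the sample with no Y-linked reads, the log2 fold changes were 0.56 for *Ccne1*, 0.37 for *Cdk4*, 1.27 for *Cdk6*, 1.46 for *Cdkn1a*, −3.37 for *Cdkn1c* and −2.99 for *Cdkn2c*. Each other sample was left out in the same way. Over the 4 fits the value for *Cdkn1a* ran from 1.43 to 1.94, that of *Cdk6* from 1.09 to 1.39, that of *Cdkn1c* from −3.37 to −2.78 and that of *Cdkn2c* from −3.03 to −2.64. All kept their direction. With 3 samples limma called no gene of the table in any of these fits, although 5757 to 8599 genes had an unadjusted p under 0.05, so these are sizes rather than calls.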

How the data were processed

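RNA of fetal liver LSK cells was sequenced by the authors from TruSeq libraries. The deposited sample values are a signal, the reads counted on each gene divided by 1 size factor per sample; in every sample 100% of values were whole multiples of 1 step (tolerance 0.01), which gave back the reads. The submitters' processing notes name Bowtie 0.12.2 and the builds mm8 and mm9, but 97.8% of 39163 genes had the start and end of GENCODE M21, so coordinates are GRCm38; the counter is not given in the sources used here. The authors' deposited group means, log2 fold changes, p-values and adjusted p-values, as well as gene positions (other columns), are in the same table; only positions and lengths were used.

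limma 3.58.1 (R 4.3.3) was run on log2(value + 1) with a variance trend, two-sided. Alternatives were a pseudocount of 0.1, other filters, no trend, a replicate block, scaling to total reads or by TMM, edgeR 4.0.16, DESeq2 1.42.0 and leaving out each sample. The procedure was tested on simulated counts. Replicates were not duplicates (chi-square per degree of freedom 14.7 in *Pich*-KO, 8.18 in *Pich*-WT). The 10 genes, the lists and the choice of limma were made with earlier results of these data known. The variance trend belongs to that choice. The rule for named genes took the 10, direct partners and markers whatever their values, and the largest and smallest changes past the threshold in each list (4 each for the other G1/S genes, 2 each for other lists), of which not all are given; promoter motifs were chosen after the data had been seen, and exceptions are stated. Of the erythroid list *Ahsp* was not analysed here.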

Additional observations from a re-analysis of the deposited data

How the results depend on the processing

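Under the 9 alternatives that keep all samples and the variance trend or use a count test, *Ccne1*, *Cdk4*, *Cdk6*, *Cdkn1a*, *Cdkn1c* and *Cdkn2c* kept their direction and stayed past the threshold. *Ccnd2* passed with the replicate block alone, at an unchanged 0.36, which made 5 of the 10 genes higher. That block, which moved the count of all genes higher from 2459 to 3122 and lower from 3113 to 3874, has no basis in the labels: deviations of samples with the same number were unrelated (Pearson 0.0133 over 10544 genes). Without the variance trend no gene passed (0 higher and 0 lower in the table and in every list), at unchanged log2 fold changes of 0.63, 0.40, 1.24, 1.69, −3.08 and −2.83 for these 6 genes. Leaving out 1 sample likewise left 0 genes past the threshold, the lone sample being assumed to vary like the other group, with ranges of 0.53 to 0.73 for *Ccne1*, 0.37 to 0.43 for *Cdk4*, 1.09 to 1.39 for *Cdk6*, 1.43 to 1.94 for *Cdkn1a*, −3.37 to −2.78 for *Cdkn1c* and −3.03 to −2.64 for *Cdkn2c*; fewer samples are left to estimate the spread.

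Leaving out samples turned the sign of some values that were not past the threshold. The ranges were −0.053 to 0.37 for *Ccnd1*, −0.033 to 0.089 for *Skp2*, −0.18 to 0.067 for *Mki67* and −0.019 to 0.10 for *Trp53*, each turned by *Pich*-KO replicate 1. Those of list medians were −1.003 to 1.02 for neutrophil and monocyte markers (turned by the same replicate, and by *Pich*-WT replicate 2 at 0.0085), −0.11 to 0.0045 for inhibitor regulators (*Pich*-KO replicate 2) and −0.39 to 0.038 for the *Cdkn1c* domain (*Pich*-KO replicate 2, and *Pich*-WT replicate 2 at 0.0059). The last also turned with at least 10 reads in every sample (0.20) and with edgeR (0.023 with TMM, 0.032 with upper-quartile scaling). Scaling to equal totals turned *Skp2* (−0.032), *Trp53* (−0.023) and the median of the other G1/S genes (−0.039), which also turned without *Pich*-WT replicate 2 (−0.0066). The median of the stem cell markers turned without *Pich*-KO replicate 2 (0.0062). That of the neutrophil and monocyte markers turned with edgeR (0.53 with TMM, 0.54 with upper-quartile scaling) and DESeq2 (0.22) too.

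Counts of list genes that moved by more than 1.5 times were as follows. With a pseudocount of 0.1, 0 lymphoid markers were higher, and 3 p53 targets and 1 gene of the *Cdkn1c* domain were lower. Without a filter on the mean, 0 lymphoid markers were higher, and lower genes numbered 2 of the other G1/S genes, 2 p53 targets, 1 of the *Cdkn1c* domain, 2 stem cell markers, 1 neutrophil and monocyte marker and 1 megakaryocyte and mast cell marker. With at least 10 reads in every sample, 3 inhibitor regulators and 2 genes of the *Cdkn1c* domain were higher, and 1 proliferation gene and 5 megakaryocyte and mast cell markers lower. With the block, 2 genes of the *Cdkn1c* domain were higher, and 7 stem cell and 6 megakaryocyte and mast cell markers lower. Scaling to equal totals gave 0 lymphoid markers higher and 1 proliferation gene lower. With edgeR and either scaling 3 inhibitor regulators and 2 genes of the *Cdkn1c* domain were higher, and 1 proliferation gene was lower with upper-quartile scaling. DESeq2 gave 5 megakaryocyte and mast cell markers lower. The cause was not tested. *Cdkn1b* and, in *Pich*-KO, *Cdkn2c* rest on fewer than 100 reads a sample. *Cdkn1c* rests on 105 reads in *Pich*-KO replicate 1 and 68 in replicate 2.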
